A study of Mus musculus with 12 samples.

Results

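Neurofilaments are the intermediate filaments of axons, and the genes described here are 10 neuronal genes read in whole dorsal root ganglia (DRG), the clusters of sensory neuron cell bodies beside the spinal cord. They were taken from the deposited count table by gene symbol, 10 of its 49315 genes: the neurofilament subunits Nefl, Nefm and Nefh, the related filament genes Prph and Ina, the pan-neuronal genes Tubb3, Uchl1 and Stmn2, and Isl1 and Spp1, which mark sensory neurons as a class and a subset of them. All mice were 10 months old and carried Postn-Cre, a recombinase driven by the periostin promoter that acts in Schwann cells and their precursors. The 6 Nf2 mice were Postn-Cre(+);Nf2 flox/flox, and the 6 DKO mice (double knockout) also carried Fak1 flox/flox, so both genotypes had lost the merlin gene Nf2 in those cells and the comparison concerns the added loss of focal adhesion kinase (Fak1, listed as Ptk2). Each library held RNA of 8 DRG from 1 mouse, and each genotype had 3 males and 3 females by label. There was no Cre-negative group, and none of the 10 genes was a target of the Cre.

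Axon calibre follows filament content: Nefl forms the core of the filament, and Nefm and Nefh carry the long phosphorylated tails that project from it. In DRG the triplet is abundant in large myelinated neurons for touch and proprioception, and peripherin (Prph) in small unmyelinated neurons for pain, itch and temperature, which lets the levels be read beside the mix of large and small neurons. Alpha-internexin (Ina) is chiefly a filament protein of central neurons. Class III beta-tubulin (Tubb3), the ubiquitin hydrolase PGP9.5 (Uchl1) and the tubulin-binding protein stathmin-2 (Stmn2) occur across neuron classes.

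Across the 12 libraries the total count was 21129191 to 41250329, and the 10 genes together took 1.05% to 1.40% of each library. Mitochondrial genes took 1.99% to 5.60% of counts, with Nf2 mouse 649 (4.45%) and DKO mouse 887 (5.60%) above the rest. Nf2 mouse 702, labelled male, had the X-inactivation transcript Xist at 496 CPM (its count scaled to the library total). Xist was 429 to 637 CPM in the mice labelled female and 0.364 to 6.17 in the other mice labelled male. The Y-linked gene Ddx3y was 0.525 CPM in mouse 702. It was 0.15 to 0.85 CPM in the mice labelled female and 76.0 to 86.3 in the other mice labelled male. Values by sex are given with and without mouse 702. The Cre acts in a part of the tissue, and whole-ganglion Ptk2 was 65.8 to 75.5 CPM in the Nf2 group and 46.5 to 76.0 CPM in DKO mice, with overlapping ranges. Of the comparison list of 24 other pan-neuronal genes all 24 passed the filter on low counts, and of 10 spinal motor and interneuron markers 7 passed it, with Chat, Slc18a3 and Mnx1 below it.

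Proximal promoters were matched in the RefSeq promoter table (GRCm38.p6) for 6 of the 10 genes, and 4 of them are shown: Prph and Spp1, whose genotype estimates were the lowest and the highest of the 10, and Ina and Isl1, which were among the genes with the widest swings between mice. Each run is the 150 bases that end 2 bases before the RefSeq start, written 5′ to 3′ on the strand of the gene, and capitals mark exact matches on either strand to the TATA box core TATAAA, the GC box core GGGCGG, the CCAAT box or the homeodomain core TAAT.
Prph, chr15:99055023-99055172, plus strand: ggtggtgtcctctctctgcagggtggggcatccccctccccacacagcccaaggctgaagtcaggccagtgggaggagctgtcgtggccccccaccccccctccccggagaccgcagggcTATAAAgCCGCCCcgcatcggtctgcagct
Ina, chr19:47014530-47014679, plus strand: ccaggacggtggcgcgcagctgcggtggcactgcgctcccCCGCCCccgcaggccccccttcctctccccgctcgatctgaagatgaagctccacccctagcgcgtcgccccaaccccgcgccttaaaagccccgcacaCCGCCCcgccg
Isl1, chr13:116309690-116309839, minus strand: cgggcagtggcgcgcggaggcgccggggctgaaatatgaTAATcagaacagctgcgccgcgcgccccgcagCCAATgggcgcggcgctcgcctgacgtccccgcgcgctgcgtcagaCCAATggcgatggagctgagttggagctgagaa
Spp1, chr5:104434960-104435109, plus strand: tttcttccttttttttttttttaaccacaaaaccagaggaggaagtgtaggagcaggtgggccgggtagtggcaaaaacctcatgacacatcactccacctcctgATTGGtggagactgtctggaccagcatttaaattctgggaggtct
The matched stretches in these runs did not overlap each other. TATAAA was in the Prph run, 1 of the 6 matched, and in 7.6% of 32851 promoter windows of the same length. GGGCGG was in Prph, Ina and Tubb3, 3 of the 6, against 28.5% of all windows. CCAAT was in Isl1, Spp1 and Tubb3, 3 of the 6, against 24.5%, and TAAT in Isl1 and Uchl1, 2 of the 6, against 37.9%. The GC content of the shown runs was 69.3% in Prph, 74.0% in Ina, 68.7% in Isl1 and 46.0% in Spp1.

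The genotypes did not differ detectably in any of the 10 genes. By edgeR with Benjamini-Hochberg adjustment, 0 of 10 passed an adjusted p of 0.05, where 0.940% of the 18295 genes tested did (172 genes, 68 higher in DKO and 104 lower). At an unadjusted p under 0.05 the count was also 0 of 10, against 14.9% of all genes, and DESeq2, limma with voom quality weights and limma on log2(CPM + 4) each called 0 of 10 as well. The unadjusted count was 1 of 10 in some alternatives: Prph with libraries scaled to the comparison list of pan-neuronal genes (edgeR, adjusted p = 0.124), and Spp1 with sex in the model, in females only or without mouse 914, 917 or 1048. In no gene were the 6 DKO mice separate from the 6 Nf2 mice, which was so for 1.95% of all genes. The estimates were higher in DKO for 6 genes and lower for 4, with a median log2 fold change of 0.04, against 0.005 over all genes tested, but with libraries scaled to that list 5 of the 6 turned negative. The 95% intervals bound what could have been missed: the lowest bound was -32.5%, for Prph, and the highest 47.8%, for Spp1. In RNA of whole ganglia, fewer neurons and less RNA per neuron cannot be told apart.

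**Figure D1:**
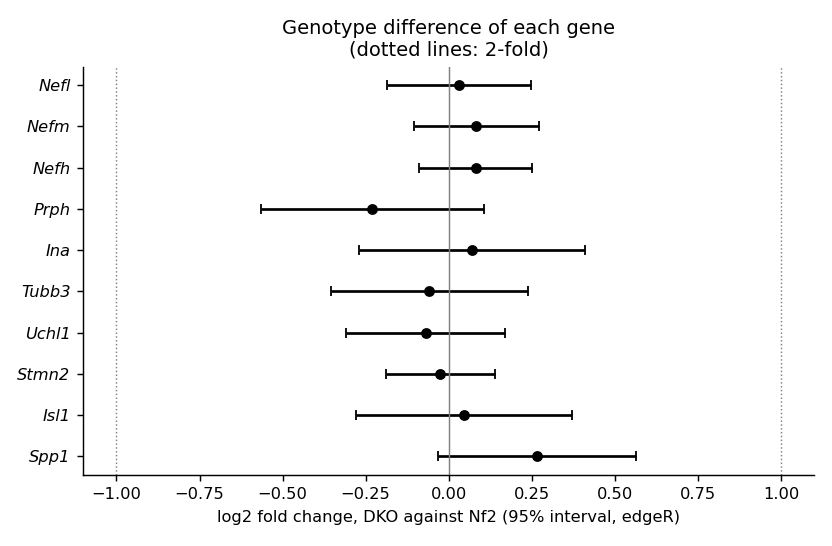
Log2 fold change of DKO against Nf2 mice (x axis) for each of the 10 genes (y axis), as points with 95% intervals from edgeR (6 mice per genotype). Every interval crosses 0 and stays inside the dotted 2-fold lines, with Prph lowest at -0.23 and Spp1 highest at 0.27.

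The estimates for the neurofilament triplet were slightly above 0, by less than the spread between mice, and slightly below 0 with libraries scaled to the comparison list. Nefl, the core subunit, was 1854, 2058 and 2661 CPM at the lowest, median and highest of the 6 Nf2 mice, and 1936, 2264 and 2363 CPM in the DKO mice. The DKO range lay inside the Nf2 range, and the log2 fold change was 0.03 ± 0.10 (SE), with an adjusted p of 0.921 by edgeR. Nefm, the medium subunit, was 2571, 2929 and 3312 CPM in the Nf2 group and 2781, 3231 and 3408 CPM in DKO mice. Its ranges overlapped over most of their length, and the log2 fold change was 0.08 ± 0.09 (95% interval -0.10 to 0.27, adjusted p = 0.714). Nefh, the heavy subunit and the usual marker of large myelinated neurons, was 1556, 1772 and 2012 CPM in the Nf2 group and 1740, 1904 and 2062 CPM in DKO mice. A single DKO mouse, 917, was above the highest Nf2 mouse, and 2 Nf2 mice were below the lowest DKO mouse. The log2 fold change of Nefh was 0.08 ± 0.08 (adjusted p = 0.690), an interval of -5.96% to 18.9%.

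Prph had the largest negative estimate of the 10. It was 964, 1203 and 1944 CPM at the lowest, median and highest of the Nf2 mice and 1019, 1062 and 1412 CPM in the DKO mice. The means were 1306 ± 352 CPM (SD, n = 6) in Nf2 and 1127 ± 148 CPM (SD, n = 6) in DKO, which gave a log2 fold change of -0.23 ± 0.16 (95% interval -0.57 to 0.11, adjusted p = 0.539 by edgeR). The DKO values fell within the Nf2 range, and 2 Nf2 mice, 649 at 1944 CPM and 1048 at 1446 CPM, exceeded all 6 DKO mice. Without mouse 649 the estimate was -0.07, and without DKO mouse 887, the highest of its group, it was -0.32 with an adjusted p of 0.286. Ina was far lower than the other filament genes, at 35.7 ± 5.44 CPM in the Nf2 group and 37.9 ± 9.87 CPM in DKO mice. Its range was 29.2 to 44.7 CPM in the Nf2 group and 27.1 to 54.5 CPM in DKO mice, so the DKO group held both the lowest and the highest mouse. The log2 fold change of Ina was 0.07 ± 0.16 (adjusted p = 0.880).

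The pan-neuronal genes were close between genotypes. Tubb3 was 1141, 1328 and 2066 CPM at the lowest, median and highest of the Nf2 mice and 1221, 1437 and 1671 CPM in the DKO mice, with a log2 fold change of -0.06 ± 0.14 (adjusted p = 0.886 by edgeR). The DKO mice again lay inside the Nf2 range, where mouse 649 was highest and mouse 918 lowest. Uchl1 was 1046, 1155 and 1543 CPM in the Nf2 group and 1036, 1228 and 1324 CPM in DKO mice, which gave a log2 fold change of -0.07 ± 0.11 (adjusted p = 0.821). Stmn2 was the most even of the 10 within DKO, at 946 to 1041 CPM with a coefficient of variation of 3.03%, against 865 to 1123 CPM and 10.7% in Nf2 mice. The log2 fold change of Stmn2 was -0.03 ± 0.08, with an interval of -12.3% to 10.1%. Isl1, the LIM-homeodomain factor of sensory neuron identity, was 57.4, 62.5 and 97.7 CPM in the Nf2 group and 64.0, 67.5 and 101 CPM in DKO mice. Its log2 fold change was 0.05 ± 0.15 (adjusted p = 0.921). The highest Isl1 value of each genotype was in mouse 649 and mouse 887, the same mice that stood out in mitochondrial share.

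**Figure D2:**
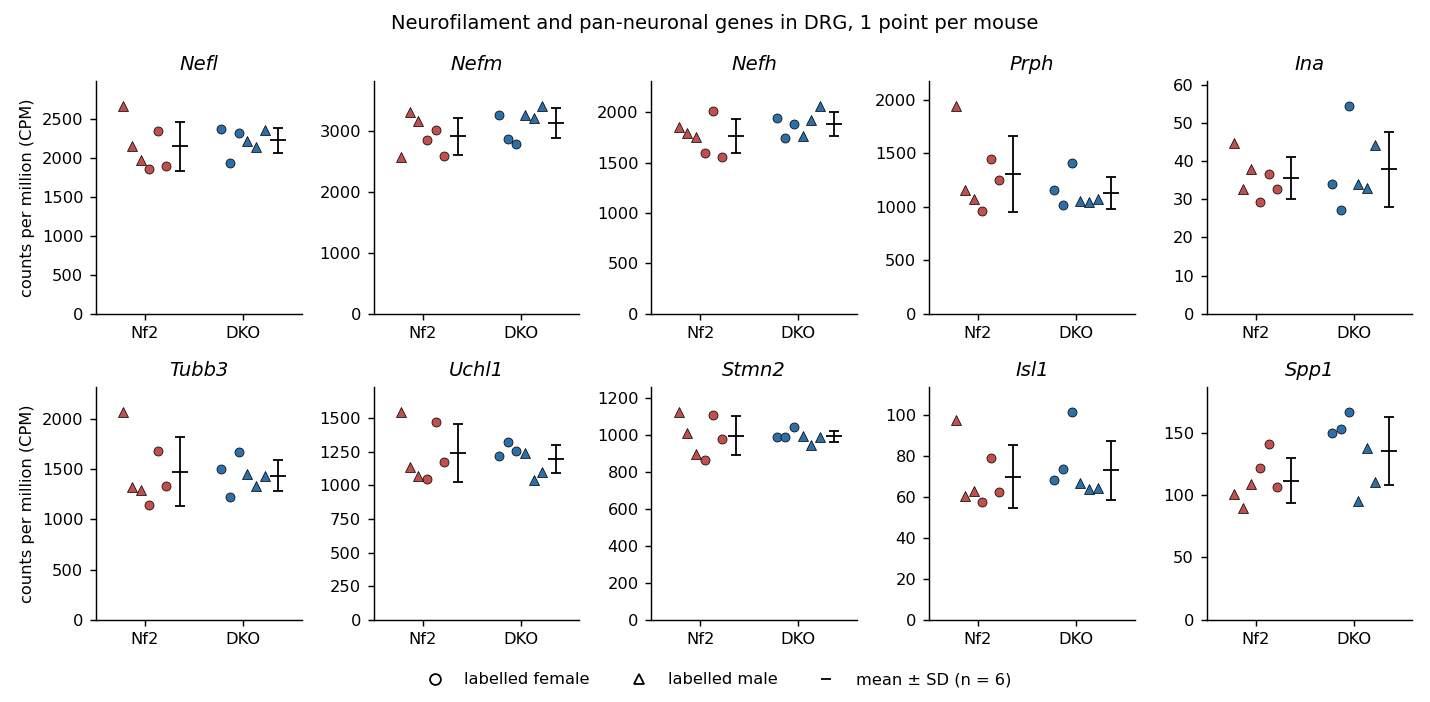
CPM (y axes, each from 0) of the 10 genes in the 6 Nf2 and 6 DKO mice, with circles for mice labelled female, triangles for mice labelled male, and bars for the mean ± SD. The genotypes overlap in every gene, the Nf2 value of mouse 649 stands high for Prph (1944 CPM) and Tubb3 (2066 CPM), and the 3 DKO females are the highest for Spp1 (150 to 167 CPM).

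Spp1 (osteopontin), a secreted glycoprotein that large proprioceptive neurons make but that macrophages and bone cells make too, had the smallest p of the 10. It was 89.3, 108 and 141 CPM at the lowest, median and highest of the Nf2 mice and 94.96, 144 and 167 CPM in the DKO mice. The means were 111 ± 17.9 CPM in Nf2 and 135 ± 27.3 CPM in DKO, and the log2 fold change of 0.27 ± 0.14 (95% interval -0.03 to 0.56) had an unadjusted p of 0.0763 and an adjusted p of 0.399 by edgeR. With labelled sex in the model it was 0.25 (unadjusted p = 0.0231, adjusted p = 0.253), and in females only 0.35 (unadjusted p = 0.0185, adjusted p = 0.472). In 3 DKO mice the level was above every Nf2 mouse, and those 3 were the females. The estimates of 16 macrophage markers were lower in DKO for 13 and higher for 3, with a median log2 fold change of -0.30. At an unadjusted p under 0.05, 7 were lower and 1 higher, where 7.96% and 6.91% of all genes were. The adjusted test called 1 of the 16, lower, where 0.568% of all genes were called lower: the complement gene C1qb (37.0 ± 6.399 CPM in Nf2, 22.9 ± 2.86 CPM in DKO, log2 fold change -0.71 ± 0.12, adjusted p = 0.0138). The summed level of the 16 was 1121 to 1722 CPM in the Nf2 group and 1023 to 1374 CPM in DKO mice. Its largest part was Cd9, at 792 ± 183 CPM in Nf2 and 736 ± 123 CPM in DKO mice (log2 fold change -0.12), so the sum follows the other markers little. Of 10 bone cell markers 6 passed the filter, with Phex, Bglap, Mepe and Sost below it. The summed level of all 10 was 21.5 to 30.9 CPM in the Nf2 group and 21.6 to 26.9 CPM in DKO mice. The share of either cell type in the Spp1 level was not tested.

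By labelled sex, Spp1 was the 1 gene of the 10 with an unadjusted p under 0.05, where 2.91% of all genes were. In Nf2 mice it was 107, 122 and 141 CPM in the 3 females and 89.3, 101 and 109 CPM in the 3 males, and in DKO mice 150, 153 and 167 CPM in females and 94.96, 111 and 138 CPM in males. Males by label were lower in both genotypes, without overlap in DKO and with overlap in Nf2. The lowest Nf2 male by label was mouse 702, at 89.3 CPM, whose Xist and Ddx3y levels were like those of the females. Without it the Nf2 males were 101 and 109 CPM, against 107 to 141 CPM in the Nf2 females. The log2 difference of males from females, with genotype in the edgeR model, was -0.38 ± 0.10 (95% interval -0.59 to -0.16, unadjusted p = 0.00213), but the adjusted p over all genes was 0.9999. Without mouse 702 it was -0.36 (unadjusted p = 0.00679, adjusted p = 0.9997), and with DESeq2 the adjusted p was 0.249. Adjusted calls by sex were 0 of 10, where 0.0164% of all genes were called. The difference of the genotype effect between sexes passed the adjusted test in 0 of 10 genes and the unadjusted test in 0 of 10, where 0.0109% and 4.78% of all genes did by edgeR. The interaction estimates were all negative, from -0.53 for Isl1 (95% interval -1.15 to 0.09, unadjusted p = 0.0871) to -0.001 for Nefm. Without mouse 702 they ran from -0.66 to 0.08, with 0 of 10 passing either test.

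Compared per kilobase of exon over all 12 mice, the levels fell into an upper group of 6 and 4 lower genes. Mean CPM per kilobase was 778 for Tubb3, 746 for Uchl1, 645 for Nefl, 609 for Prph, 523 for Nefm and 457 for Nefh, and neighbours in this order overlapped in range. The order within the upper group was not the same in every mouse: Tubb3 exceeded Uchl1 in 9 of 12 mice and Prph exceeded Nefm in 7 of 12. Below them Stmn2 (177), Spp1 (74.9) and Isl1 (18.1 CPM per kilobase) each lay beneath the one before in all 12 mice, without overlap. Ina was last at 11.4 CPM per kilobase, lower than Isl1 in 12 of 12 mice though the ranges overlapped. Nefl and Nefm lie on opposite strands of chromosome 14 in GRCm38, and in the GENCODE M21 annotation Nefm (68082590-68124846, minus) spans Nefl (68083863-68089095, plus). They share 1108 exon bases, 32.8% of the exon length of Nefl and 19.2% of that of Nefm, and how reads there were assigned is not stated in the sources used here. Exon bases were also shared by Ina with Nt5c2 (456 bases), Uchl1 with Uchl1os (295 bases) and Spp1 with Gm42793 (309 bases). Ina is at 19:47014698-47025327, Uchl1 at 5:66676091-66687234 and Spp1 at 5:104435118-104441050, all on the plus strand. Tubb3 (8:123411424-123422015, plus), Stmn2 (3:8509360-8561606, plus) and Isl1 (13:116298281-116309689, minus) share no exon bases with another gene of the annotation.

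Nefh and Prph lie on the chromosomes of the engineered alleles. Nefh (11:4938754-4948064) is 89.2 kb from Nf2 and Prph (15:99055174-99058978) is 25.6 Mb from Ptk2. The tested genes on either side of Nefh were Thoc5, with a log2 fold change of 0.005 ± 0.06, and Ap1b1, with 0.08 ± 0.07 (adjusted p = 0.980 and 0.685 by edgeR). Beside Nefl and Nefm were Dock5, with a log2 fold change of 0.32 ± 0.13 (unadjusted p = 0.0229, adjusted p = 0.238), and Adamdec1, with -0.14 ± 0.50 (adjusted p = 0.928).

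Ratios within a mouse compare the filament genes with each other free of library scaling, and are given as descriptions. The ratio of Nefh to Prph was 0.955, 1.47 and 1.66 at the lowest, median and highest of the Nf2 mice and 1.34, 1.69 and 1.93 in the DKO mice. In 5 of 6 DKO mice it was above the highest Nf2 mouse, the exception being mouse 887. The ratio of Nefl to Prph followed the same order, at 1.37 to 1.92 in the Nf2 group and 1.64 to 2.20 in DKO mice, with 4 DKO mice above all Nf2 mice. Prph relative to Tubb3 was 0.835 to 0.941 in the Nf2 group and 0.729 to 0.845 in DKO mice, so that 4 Nf2 mice were above all DKO mice. Within the triplet the genotypes were alike in median: Nefl to Nefm was 0.691 in Nf2 and 0.685 in DKO mice, and Nefh to Nefl was 0.847 and 0.850. Mouse 649 departed from its group in both, with Nefl to Nefm at 1.035 and Nefh to Nefl at 0.697. The lowest ratios of Nefh to Prph were in mice 649, 1049, 887 and 1048, at 0.955, 1.25, 1.34 and 1.39. These mice also had the highest mitochondrial shares, at 4.45%, 2.91%, 5.60% and 3.15%. The remaining Nf2 mice had ratios of 1.54 to 1.66 and the remaining DKO mice 1.67 to 1.93. The relation of the ratio to the share was not tested.

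**Figure D3:**
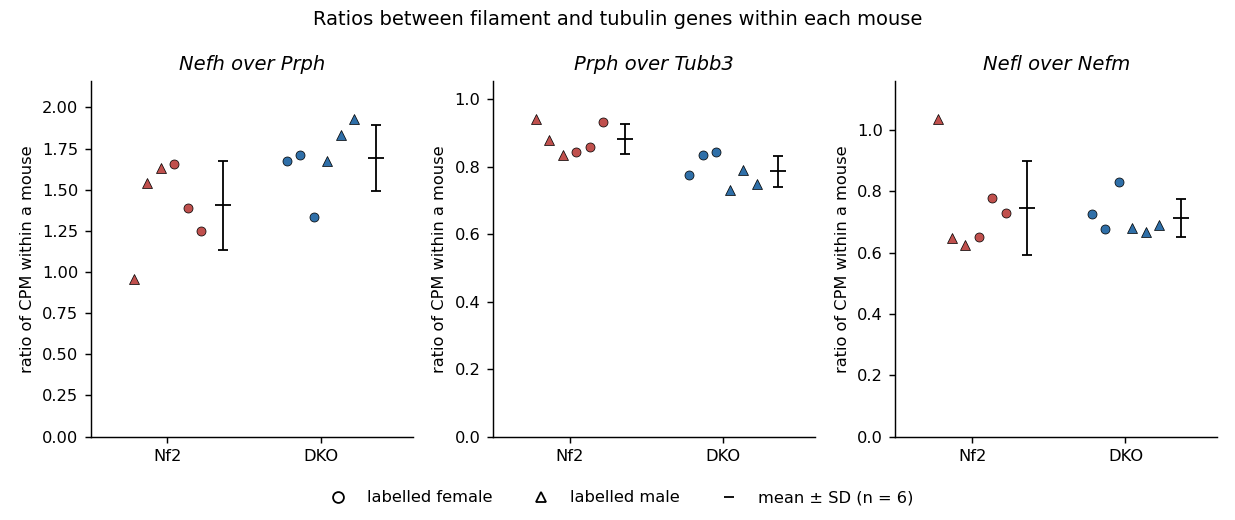
Within-mouse ratios of CPM (y axes, from 0) for Nefh over Prph, Prph over Tubb3 and Nefl over Nefm in Nf2 and DKO mice, with circles for labelled females, triangles for labelled males and bars for the mean ± SD of 6 mice. Nefh over Prph is higher in 5 DKO mice than in any Nf2 mouse, and the Nf2 mouse 649 is apart in the first and last panel (0.955 and 1.035).

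Nefl, Prph, Ina, Tubb3, Uchl1, Stmn2 and Isl1 each varied with at least 3 others of the 10 from mouse to mouse, Nefh passed the test of Pearson's r with Nefl only, and Nefm and Spp1 passed with none. Over the 45 pairs of genes and 12 mice, Pearson's r of log2 CPM was above 0.7 in 15 pairs and below 0 in 8. The adjusted permutation p (100000 resamples, two-sided, Benjamini-Hochberg over 45 pairs) was under 0.05 in 18 pairs for r, and in 11 of those also for Spearman's rho. Prph and Tubb3 had r = 0.93 and rho = 0.81 (permutation p = 0.0002 and 0.00217, adjusted 0.00207 and 0.0195), with r = 0.99 within Nf2 mice, 0.90 within DKO mice and 0.76 without the 2 mice farthest from the median of Prph. Nefl and Tubb3 had r = 0.91 and rho = 0.90 (permutation p = 3e-05 and 0.00022, adjusted 0.00135 and 0.00495), with r = 0.95 and 0.87 within the genotypes and 0.89 without the farthest 2 mice. Uchl1 and Stmn2 had r = 0.89 and rho = 0.92 (permutation p = 0.00023 and 0.00012, adjusted 0.00207 and 0.00495), with r = 0.94 and 0.74 within the genotypes and 0.73 without the farthest 2 mice.

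Within the triplet, Nefl went with Nefh (r = 0.78, rho = 0.83, permutation p = 0.00243 and 0.00148, adjusted 0.0109 and 0.0179), and this held without the farthest 2 mice (r = 0.86). Nefl and its neighbour Nefm did not vary together (r = 0.08, rho = 0.13, permutation p = 0.813 and 0.681, adjusted 0.901 and 0.808). Nefm ran opposite to Prph in sign (r = -0.52, rho = -0.31), without passing the test (permutation p = 0.0765 and 0.319, adjusted 0.150 and 0.468). Mice 649 and 887, which were the highest of their genotypes for Prph, were the lowest for Nefm, at 2571 and 2781 CPM. Some pairs rested on few mice: Ina and Isl1 had r = 0.70 and rho = 0.61 (permutation p = 0.0149 and 0.0392, adjusted 0.0373 and 0.0979), but r = -0.07 without the farthest 2 mice. Nefl and Uchl1 had r = 0.62 and rho = 0.55 (permutation p = 0.0326 and 0.0708, adjusted 0.0734 and 0.145), with r = 0.91 within Nf2 mice and -0.11 within DKO mice.

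The mitochondrial share of counts moved with several of these genes. Over 12 mice its r with the gene's log2 CPM was 0.88 for Isl1, 0.81 for Ina, 0.76 for Prph and 0.73 for Tubb3 (permutation p = 0.00256, 0.00245, 0.0153 and 0.0146, adjusted over 10 genes 0.0128, 0.0128, 0.0382 and 0.0382). Spearman's rho was 0.45, 0.57, 0.60 and 0.48 (permutation p = 0.148, 0.0547, 0.0424 and 0.123), and no adjusted value was under 0.05 (0.295, 0.182, 0.182 and 0.295). Without mice 649 and 887, the 2 farthest in share, r was 0.27, 0.26, 0.62 and 0.38, so the relation for Isl1, Ina and Tubb3 rests on those 2 mice. Nefm alone of the 10 had a negative r, -0.56 (rho = -0.69, permutation p = 0.0501 and 0.0173, adjusted 0.0835 and 0.173). The part of RNA quality or tissue composition in these values was not tested.

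**Figure D4:**
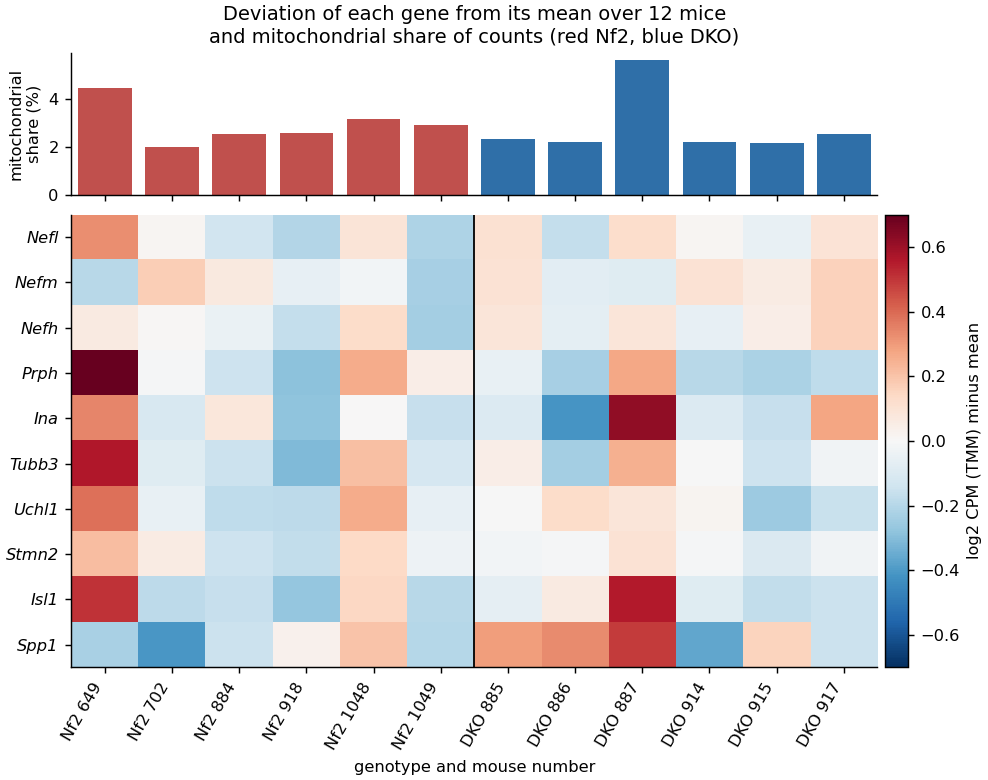
Top, the mitochondrial share of counts in percent for each mouse (red Nf2, blue DKO). Below, the deviation of each gene from its mean over the 12 mice, in log2 CPM with TMM scaling (color scale), with 1 column per mouse: mice 649 (4.45%) and 887 (5.60%) are high for Prph, Tubb3, Ina and Isl1 and low for Nefm.

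Among all 15847 genes with a mean of at least 1 CPM, those most like Prph over the 12 mice were Ppp4c (r = 0.98), the tubulin gene Tubb2a (0.98), Selenow (0.97), Lypla2 (0.97) and Atp6ap1 (0.97). Spearman's rho for these genes was lower, at 0.85, 0.92, 0.81, 0.91 and 0.90. Those most like Nefh were Gon7 (r = 0.87), Gm5844 (0.85), Fam69b (0.85), Tspan12 (0.83) and Slc41a2 (0.83), with rho of 0.87, 0.80, 0.86, 0.87 and 0.90. Of these, Gon7 and Gm5844 were low, at 3.65 and 0.944 CPM on average in the Nf2 group. These are the highest of many correlations and are given as a description.

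Among genes of large-fiber neurons, 1 rose in DKO mice, Calb1. Of 20 such genes all were tested and 1 was called, higher, where 0.372% of all genes were called higher, and at an unadjusted p under 0.05 the counts were 8 higher and 1 lower, where 6.91% and 7.96% of all genes were. The median log2 fold change of the 20 was 0.14. The list was chosen with earlier results of these data known, so these counts are a description. Counting both directions together, DESeq2 called 6 of the 20, where it called 4.91% of all genes. Limma with voom called 5, where it called 2.85%. Calb1, which encodes the calcium-buffering protein calbindin, was 23.6, 32.1 and 33.9 CPM at the lowest, median and highest of the Nf2 mice and 42.8, 49.5 and 75.2 CPM in the DKO mice, without overlap. The log2 fold change was 0.82 ± 0.15, with an adjusted p of 0.0195 by edgeR, and without Nf2 mouse 918 the call was lost at 0.81 (adjusted p = 0.0525). Scn8a, a sodium channel of nodes of Ranvier, was 134 to 188 CPM in the Nf2 group and 192 to 224 CPM in DKO mice (log2 fold change 0.36 ± 0.08, adjusted p = 0.0522). Ntrk3, the neurotrophin-3 receptor of proprioceptors, was 199 to 259 CPM and 269 to 339 CPM (0.31 ± 0.07, adjusted p = 0.0654). Neither passed the adjusted test. Calb1, Scn8a and Ntrk3 were the genes of the 20 that were separate between genotypes, which was so for 1.95% of all genes. Heg1, also of this list, was 113 ± 22.3 CPM in Nf2 and 76.8 ± 13.1 CPM in DKO mice (-0.58 ± 0.14, adjusted p = 0.0657).

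Of 22 small-fiber genes all were tested and 0 were called by edgeR, with a median log2 fold change of -0.01. The counts at an unadjusted p under 0.05 were 0 higher and 3 lower, where 6.91% and 7.96% of all genes were. DESeq2 and limma with voom each called 1 of the 22, beside the same 4.91% and 2.85% of all genes. The 3 were Gfra3, a receptor subunit for artemin, at 31.5 ± 3.47 CPM in Nf2 and 23.8 ± 2.96 CPM in DKO mice (-0.42 ± 0.10, adjusted p = 0.0564), the lysophosphatidic acid receptor Lpar3 (-0.27, adjusted p = 0.146) and Gfra2, the neurturin receptor subunit (-0.13, adjusted p = 0.331). Scn11a, a sodium channel of nociceptors, was -0.19 ± 0.11 (adjusted p = 0.471). The large-fiber result depended on scaling: with libraries scaled to the comparison list of pan-neuronal genes the large-fiber counts at an unadjusted p under 0.05 were 1 higher and 2 lower, with a median of -0.02, and the small-fiber counts 0 and 5, with a median of -0.17. The scaling used the summed counts of that list, in which Meg3 and Snhg11 had the highest means. Meg3 was 2067 ± 718 CPM in Nf2 and 2545 ± 656 CPM in DKO mice, and Snhg11 1127 ± 367 and 1257 ± 250 CPM. How much these genes set the scaling was not tested. That scaling moved the median of all genes to -0.14, and 3354 of 18295 genes had an unadjusted p under 0.05. Under it Calb1 was 0.67, with an adjusted p of 0.131.

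**Figure D5:**
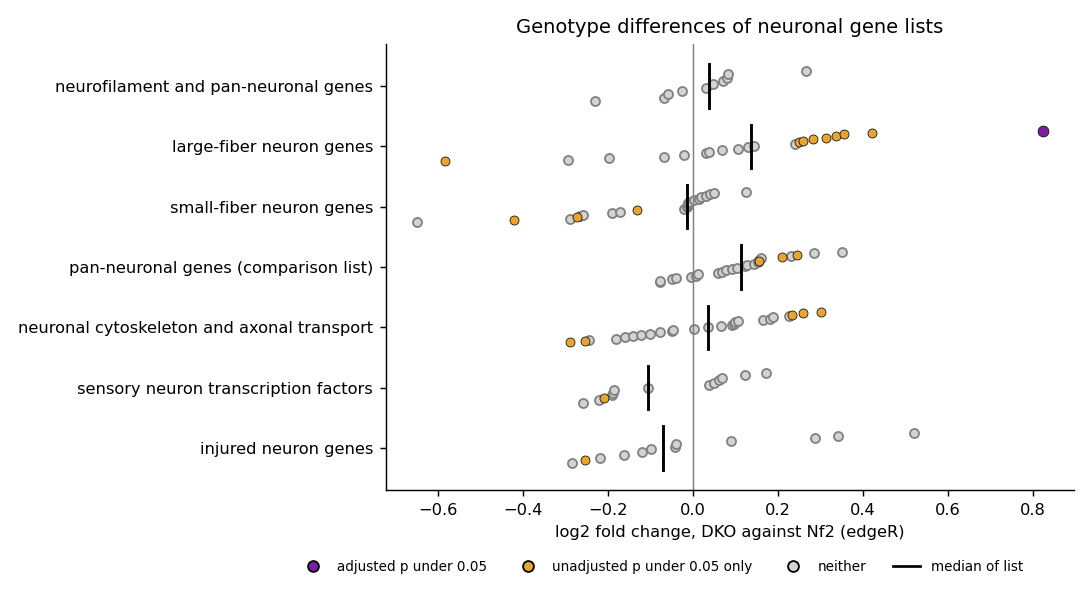
Log2 fold change of DKO against Nf2 mice (x axis) for the members of 7 neuronal gene lists (y axis), 1 point per gene, with black bars for the list median, purple for an adjusted p under 0.05 and orange for an unadjusted p under 0.05 only (edgeR). Calb1 is the single purple point, at 0.82, and the medians are 0.14 for the large-fiber list, 0.11 for the pan-neuronal comparison list and 0.04 for the 10 neurofilament and pan-neuronal genes.

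The comparison list of 24 pan-neuronal genes had 0 called by edgeR, with 19 estimates above 0 and 5 below and a median of 0.11. At an unadjusted p under 0.05, 3 were higher, where 6.91% of all genes were. The 3 were the calcium sensor Vsnl1 (log2 fold change 0.24 ± 0.08, adjusted p = 0.162), the RNA-binding protein Elavl2 (0.16 ± 0.06, adjusted p = 0.210) and neuron-specific enolase Eno2 (0.21 ± 0.09, adjusted p = 0.276). Secretogranin Scg2 was 0.23 ± 0.12 (adjusted p = 0.394). Of 25 genes of the neuronal cytoskeleton and axonal transport 0 were called, with a median of 0.04. The counts at an unadjusted p under 0.05 were 3 higher and 2 lower, beside 6.91% and 7.96% of all genes. The microtubule-associated protein Map1b was 4250 to 4880 CPM in the Nf2 group and 5177 to 5872 CPM in DKO mice (0.26 ± 0.08, adjusted p = 0.126). It alone of the 25 was without overlap, where 1.95% of all genes were. The kinesin motor Kif5c was 0.30 ± 0.11 (adjusted p = 0.206), ankyrin-G (Ank3) -0.26 ± 0.08 (adjusted p = 0.160) and the tubulin Tubb2b -0.29 ± 0.11 (adjusted p = 0.247).

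Of 13 genes listed as sensory neuron transcription factors or cofactors other than Isl1, all were tested and 0 were called. The listed symbol Drgx is another name of Prrxl1 and was counted once. Runx1 is also on the small-fiber list, and Runx3 and Etv1 are also on the large-fiber list. At an unadjusted p under 0.05, 1 of the 13 was lower, and the median log2 fold change was -0.11. Over all genes 7.96% were lower at an unadjusted p under 0.05. The paralog Isl2 was 145 ± 15.2 CPM in Nf2 and 127 ± 13.3 CPM in DKO mice (-0.21 ± 0.09, adjusted p = 0.276 by edgeR), beside 0.05 for Isl1. Runx1, Tlx2 and Ldb2 were -0.26 ± 0.18, -0.22 ± 0.17 and -0.19 ± 0.16 (adjusted p = 0.539, 0.587 and 0.633). Of 13 genes of injured neurons 12 were tested, 0 were called and 1 was lower at an unadjusted p under 0.05, the stress-induced factor Atf3 (36.5 ± 2.01 CPM in Nf2, 31.0 ± 4.75 CPM in DKO, -0.26 ± 0.10, adjusted p = 0.236). Npy of this list was low, at 1.06 ± 0.63 CPM in Nf2 and 1.53 ± 0.83 CPM in DKO mice (0.52 ± 0.41, adjusted p = 0.612). Gadd45a and Flrt3 were -0.22 ± 0.18 and -0.12 ± 0.10 (adjusted p = 0.624 and 0.637).

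Other cells of the tissue were followed by their own markers. Beside the counts below, 6.91% of all genes were higher and 7.96% lower in DKO at an unadjusted p under 0.05. The estimates of skeletal muscle markers were lower in DKO for 14 of 15 genes, with a median log2 fold change of -1.96 and summed levels of 55.7 to 1037 CPM in the Nf2 group and 69.4 to 365 CPM in DKO mice, and 0 passed the adjusted edgeR test though 10 were lower at an unadjusted p under 0.05. Pvalb is on both the muscle and the large-fiber list. Scaling without muscle, mitochondrial and hemoglobin genes left the 10 genes between -0.23 and 0.26. Of 9 satellite glia markers 0 were called and 2 were lower at an unadjusted p under 0.05, with a median of -0.13, and of 12 Schwann cell markers 0 were called and 2 were lower, with a median of -0.08. Spinal markers, 7 of 10 tested, had a median of 0.66 with 0 called and 2 higher at an unadjusted p under 0.05. Their summed level was low and overlapped, at 19.8 to 63.4 CPM in the Nf2 group and 29.2 to 113 CPM in DKO mice. Among the 2 was the connexin gene Gjd2, at 1.52 ± 0.28 CPM in Nf2 and 2.15 ± 0.41 CPM in DKO mice (0.48 ± 0.18, adjusted p = 0.207). Oligodendrocyte markers, 7 of 8 tested, had 0 called and 1 lower, the myelin protein gene Mal (-0.29 ± 0.10, adjusted p = 0.175), and a median of 0.45. What these cells contributed to the neuronal values was not tested.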

How the data were processed

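Poly(A)-selected RNA from DRG of 12 mice, 6 Nf2 and 6 DKO, was sequenced, and the authors deposited 1 table of raw counts per gene. The submitters' processing notes name Trimmomatic 0.36, STAR 2.5.2b and featureCounts of Subread 1.5.2 with GRCm38, and strand and multimapper settings are not given in the sources used here. Counts were tested with edgeR 4.0.16 in R 4.3.3 (TMM scaling, filterByExpr, quasi-likelihood F test, Benjamini-Hochberg over all genes tested, threshold 0.05) as genotype alone, with labelled sex, and with their product. SE is the log2 fold change over the square root of F. Log2 CPM used a prior count of 2. Exon lengths came from GENCODE M21, which held 48970 of the 49315 table genes (99.3%). DESeq2 1.42.0, limma 3.58.1 with voom or on log2(CPM + 4), other scalings and filters, and fits by sex or without 1 mouse were alternatives. The labels give no batch. No mouse was left out of the fits unless stated. The scripts were tested on simulated data. All 10 genes are named, and from every other list up to 4 tested genes with the smallest p, with Meg3, Snhg11 and Cd9 added for their level. The genes and lists were chosen with earlier results of these data known. Total counts were 21129191 to 41250329 per mouse, and the lowest count of any of the 10 genes in any mouse was 637. The values of 1 gene of the spinal list are not reported here.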

Additional observations from a re-analysis of the deposited data

Results flagged for a closer look

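In groups of 6 mice, the highest or lowest mouse was compared with its nearest neighbour by Dixon's gap test for each of the 10 genes and 8 ratios in each genotype. It marked 6 of 36 groups, where chance gives about 1.8, and the groups share mice and genes. All 6 concern mouse 649 or mouse 887, the mice with the highest mitochondrial shares, 4.45% and 5.60%. In DKO mouse 887, Prph was 1412 CPM against 1161 CPM in the next DKO mouse, and Isl1 was 101.4 CPM against 73.71 CPM. Its ratio of Nefm to Prph was 1.97, against 2.806 in the nearest mouse, and its ratio of Nefl to Nefm 0.8309, against 0.7252. In Nf2 mouse 649, the ratio of Nefl to Nefm was 1.035, against 0.7778 in the nearest mouse, and the ratio of Nefh to Nefl was 0.6973, against 0.8249. What sets these mice apart was not tested.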

How the results depend on the processing

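The count of 0 of 10 genes passing the adjusted genotype test held in all 28 alternatives, 12 of them without 1 mouse, and the smallest adjusted p of any of the 10 was 0.124 (Prph at -0.35 with libraries scaled to the pan-neuronal comparison list). Over all genes the calls ran from 2 (males only) to 845 (DESeq2), against 172. Small estimates changed sign. Scaled to the summed counts of the pan-neuronal list, where the median of all genes was -0.14, Nefl was -0.10, Nefm -0.071, Nefh -0.059, Ina -0.083 and Isl1 -0.089. With voom, Tubb3 was 0.055 and Stmn2 0.0064. In females, Tubb3 was 0.084, Uchl1 0.047 and Stmn2 0.035. In males, Nefl was -0.063, Ina -0.10 and Isl1 -0.23, and without mouse 702 -0.10, -0.21 and -0.35. Without mice 649 and 887, a choice made after seeing the data, Ina was -0.00013 and Tubb3 0.0042, and with mitochondrial share as a covariate, also chosen then, 0 of 10 passed. Leaving out 1 mouse gave -0.080 to 0.15 for Ina, -0.088 to 0.17 for Isl1, -0.0069 to 0.11 for Nefl, -0.063 to 0.017 for Stmn2, -0.12 to 0.070 for Tubb3 and -0.11 to 0.0088 for Uchl1, and without a sign change -0.32 to -0.07 for Prph, 0.18 to 0.34 for Spp1 and 0.71 to 0.89 for Calb1. Calb1 was not called in females (1.01, adjusted p = 0.0874), males (0.59, 0.347) or males without mouse 702 (0.67, 0.553). With longest-transcript lengths 4 of 10 ranks of level changed, those of Tubb3, Uchl1, Nefl and Nefm. No paired analysis was possible because mouse numbers are not shared between genotypes. The cause of these shifts was not tested.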
